A study of Zea mays with 18 samples.

Results

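The genes described here are 93 maize genes whose transcripts were strongly induced by 1 h of heat stress in both genotypes of the study and which had largely left the induced state in W22 after 2 h of recovery. They were chosen by 5 limits on group means of log2(FPKM + 1), where FPKM is the fragment count of a gene scaled by transcript length and library size. A gene was taken when its mean at 1 h exceeded that at 0 h by 3 or more under both labels, when its mean in W22 at R2h exceeded that at 0 h by less than 1.2, and when nf-ya1 minus W22 was above −1 at 0 h and at 1 h. Of the 36321 genes in the table, 93 met all limits. Of these, 88 carry a gene set ID and 5 were assembled by the authors without one. All 93 passed the filter on low values used for testing, which the heated libraries alone fixed by the choice of genes.

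RNA-seq was performed on leaves of nf-ya1 and of W22, with 3 libraries for each of the 6 combinations of genotype and sample. W22 is the inbred line that served as wild type, and nf-ya1 is 1 homozygous mutant line, also W22, that carries a Mutator transposon in ZmNF-YA1 (Zm00001eb005690), which encodes the A subunit of the NF-Y transcription factor. Plants were sampled under normal conditions before heat stress (0 h), after mild heat stress at 39 °C for 1 h (1 h), and 2 h into recovery (R2h). The comparison asks how the mutant differs from its wild type in the response to heat stress and after it. The times are those of the sample titles, whereas the deposited protocol text gives other times, and the methods describe heating for longer than 1 h before R2h for seedlings used in qRT-PCR without saying that the RNA-seq plants were treated in the same way. The methods call the 3 samples of a group biological replicates. Each of these held leaf pieces of several plants where physiological parameters were measured, and pooling is not given for RNA-seq.

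Plant cells answer a sudden rise in temperature with the heat shock response, in which heat shock transcription factors switch on genes for chaperones within minutes. Small heat shock proteins hold unfolding proteins, ClpB-type ATPases pull apart aggregates, and Hsp70 with its DnaJ partners, Hsp90 with its co-chaperones and the chaperonins refold them. The response is commonly short, because chaperones that are no longer occupied by unfolded proteins bind and silence the transcription factors. NF-Y is a trimer of A, B and C subunits that binds the CCAAT box of promoters, and some of its plant members take part in heat stress responses.

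ZmNF-YA1 itself was listed above 0 in all libraries. At R2h libraries labelled nf-ya1 held 8.97, 12.89 and 9.38 FPKM of it, against 11.35, 15.13 and 12.42 in W22, and the groups overlapped (log2 fold change of −0.30 with an SE of 0.20 and an adjusted p of 0.297). At 0 h the values were 13.01, 12.6 and 21.15 under the nf-ya1 label against 23.12, 22.79 and 26.55 in W22, without overlap and lower under the nf-ya1 label (−0.64, SE 0.20, adjusted p 0.0182, not called). At 1 h the labels overlapped. The FPKM of the targeted gene was thus lower at 0 h but not absent under the nf-ya1 label, so every direction between the genotypes below is a direction between labels. The FPKM of a library summed to 804977 to 928910. The leaf label was checked with the 21 genes annotated as chlorophyll A-B binding proteins, whose summed FPKM was 12859 to 90599 over the 18 libraries. At 1 h this sum was 25829 to 65925 under the nf-ya1 label and 12859 to 21261 in W22. At 0 h it was 66038 to 69484 and 48009 to 53281 in the same order of labels, and at R2h 74979 to 90599 and 50165 to 57028. The labels were thus apart in this sum at every time. Its part in the differences below was not tested.

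Some libraries stood apart over these genes. Replicate 1 of W22 at R2h was the lowest of its group for 75 of the 93 genes and the highest for 2. Replicate 1 labelled nf-ya1 at 1 h was the lowest for 68 and replicate 3 the highest for 67. At 0 h replicate 3 labelled nf-ya1 was the highest for 56. The median coefficient of variation of the genes among replicates was 30.1%, 16.3% and 19.7% at 0 h, 1 h and R2h under the nf-ya1 label, and 15.2%, 8.61% and 19.6% in W22. The spread among libraries was thus widest at 0 h under the nf-ya1 label. In leaf tissue as a whole, a change in the number of cells of a type cannot be told apart from a change in the RNA of each cell.

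The limits cut through a continuous range of values. On the rise in W22, Zm00001eb122950 and Zm00001eb282490 lay just inside with 3.03 and 3.04, and Zm00001eb157540 and Zm00001eb014460 just outside with 2.99 each. This limit alone excluded 166 genes that met the others. On the rise under the nf-ya1 label, Zm00001eb387920 and Zm00001eb168260 lay inside with 3.01 and 3.10, and BGI_novel_G002850 and Zm00001eb416540 outside with 2.97 and 2.86, and this limit alone excluded 18 genes. The recovery limit held Zm00001eb393250 and Zm00001eb337680 inside with 1.13 each and left Zm00001eb272270 and Zm00001eb408940 outside with 1.23 and 1.34, and it alone excluded 27 genes. The limit on nf-ya1 minus W22 at 0 h alone excluded 31 genes, with Zm00001eb247320 and Zm00001eb229930 inside at −0.87 and −0.81 and BGI_novel_G001544 and Zm00001eb217010 outside at −1.02 and −1.09. At 1 h Zm00001eb201140 and Zm00001eb387920 lay inside at −0.92 and −0.81, and the only gene excluded by this limit alone was Zm00001eb179900 at −2.25. The number of genes moved most with the scale and the rise limit, to 148 with log2(FPKM + 0.1), 201 with median-ratio scaling of the libraries, 159 with a rise of 2.5 and 48 with a rise of 3.5.

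The median gene of the set was at 6.27 FPKM at 0 h, 188 at 1 h and 8.87 at R2h under the nf-ya1 label, and at 6.31, 96.9 and 6.86 in W22. Summed over the 93 genes, the transcripts made up 6.51% ± 0.717 of all FPKM at 1 h under the nf-ya1 label and 4.34% ± 0.168 in W22 (SD, n = 3 libraries each). At 0 h the sum was 0.235% under the nf-ya1 label and 0.207% in W22, and at R2h it was 0.303% under the nf-ya1 label and 0.177% in W22. The rule selected on the 0 h and 1 h libraries of both labels and on W22 at R2h, so these levels are a description. The median rise was 4.36 log2 units (range 3.01 to 9.63) under the nf-ya1 label and 3.70 (3.03 to 7.74) in W22, while the median over all 22572 genes tested was −0.92 and −0.51. The medians were 4.36 and 3.70 also without the 5 and 2 genes that were listed at 0 in every 0 h library of that label.

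**Figure D1:**
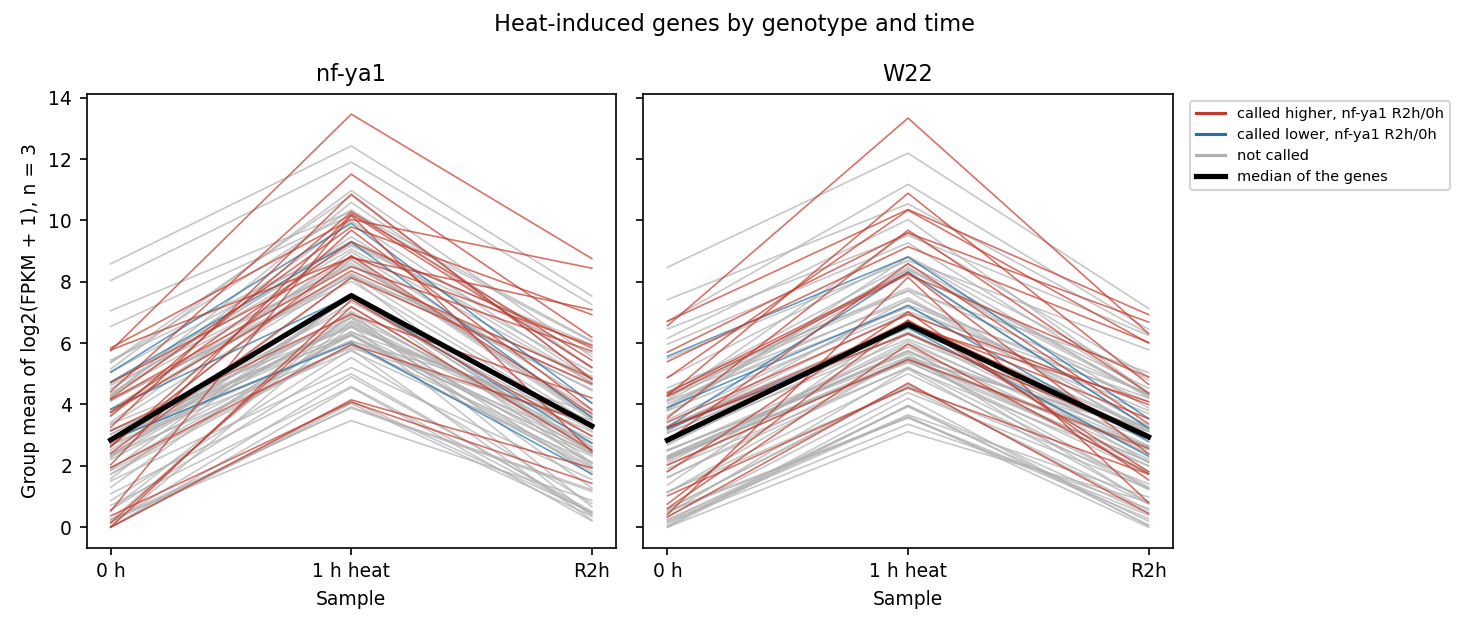
Group means of log2(FPKM + 1) (vertical axis, n = 3 libraries) of the 93 genes at 0 h, 1 h and R2h under the nf-ya1 label (left) and in W22 (right). Each line is a gene, coloured by its call in nf-ya1 R2h/0h (22 higher in red, 4 lower in blue), and the black line is the median. All lines peak at 1 h, and the red lines end above their start under the nf-ya1 label.

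A gene was called when its Benjamini-Hochberg adjusted p in limma was 0.01 or less and its log2 fold change was at least 1 in size. On all tested genes 7.62% were called higher in nf-ya1 1 h/0 h and 5.79% in W22 1 h/0 h, and the 93 genes were called in both, which the rule fixed. Under the nf-ya1 label 64 genes rose by 4 or more and 29 by 5 or more, against 29 and 13 in W22. The rise was larger under the nf-ya1 label for 78 genes and larger in W22 for 15. At 1 h 77 of the genes were higher under the nf-ya1 label than in W22 (median difference 0.67, range −0.92 to 4.18), whereas at 0 h 46 were higher and 47 lower (median −0.01). These contrasts entered the rule, which removed genes that were lower under the nf-ya1 label by 1 or more and none that were higher.

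By abundance at 1 h, the set was led by Zm00001eb193940, annotated as an alpha crystallin/Hsp20 protein, the family of small heat shock proteins. It was listed at 11913.2, 11097.4 and 10941.7 FPKM at 1 h and at 57.34, 38.84 and 66.74 at 0 h under the nf-ya1 label. In W22 it was listed at 11609.1, 10001.5 and 9541.45 at 1 h and at 91.5, 97.98 and 91.3 at 0 h. The heated libraries of both labels overlapped for this gene, and the unheated ones did not. Zm00001eb368000, not annotated here, was the next with 4099.34, 5820.31 and 6996.8 FPKM at 1 h under the nf-ya1 label and 5032.84, 4578.38 and 4458.42 in W22. It was also the most abundant of the set before heat, with 456.43, 239.17 and 515.14 FPKM under the nf-ya1 label and 356.15, 349.66 and 356.3 in W22. Zm00001eb230820, annotated as related to Bax inhibitor 1, a membrane protein family that restrains cell death, reached 3711.15, 3932.65 and 3861.31 FPKM at 1 h under the nf-ya1 label against 2364.17, 2100.27 and 2500.97 in W22. The other genes among the 8 most abundant were Zm00001eb060680, Zm00001eb036130, Zm00001eb348620, Zm00001eb229930 and Zm00001eb247320. Altogether 44 genes had a mean above 100 FPKM at 1 h under both labels, and 7 a mean above 1000.

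By rise, the set was led by Zm00001eb004300, which was nearly silent before heat. Its FPKM at 1 h was 965.28, 1223.6 and 1265.6 under the nf-ya1 label and 382.55, 239.4 and 247.1 in W22, and its rise was 9.63 and 7.74 log2 units. At 0 h it was listed at 0.78, 0.68 and 0 under the nf-ya1 label and at 0.72, 0.37 and 0 in W22. Zm00001eb215030, a further gene annotated as related to Bax inhibitor 1, reached 1185.38, 1177.22 and 1182.21 FPKM at 1 h under the nf-ya1 label and 451.21, 322.72 and 396.54 in W22. At 0 h it was listed at 2.22, 3.72 and 3.52 under the nf-ya1 label and at 7.84, 7.04 and 4.04 in W22. The label with the lower unheated values thus had the higher heated ones, and the groups overlapped at neither time. Zm00001eb071870, annotated as alternative oxidase, the mitochondrial enzyme that passes electrons to oxygen outside the cytochrome pathway, reached 643.38, 849.05 and 1012.47 FPKM under the nf-ya1 label and 149.75, 117.37 and 121.38 in W22. Zm00001eb337680 was at 135.4, 159.69 and 140.77 FPKM at 1 h and at 0.1 in each 0 h library labelled nf-ya1, against 59.83, 57.36 and 67.53 at 1 h and 0.61, 0.4 and 0.6 at 0 h in W22. Of the 93 genes, 12 were listed at 0 in at least 1 library at 0 h. Zm00001eb362220 was among them, with 110.09, 184.47 and 239.92 FPKM at 1 h and 0 in all 3 libraries at 0 h under the nf-ya1 label.

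Gene names were available for 13 of the 93 genes. They came from an annotation column of the study's supplement in a shortened copy that covers 1996 genes, and the study had chosen those genes as differentially expressed on these samples, so the names are not independent evidence. Ordered by role, 6 of the 13 were placed in the folding machinery by the words of their annotation. Besides the small heat shock protein these were a protein annotated with a ClpA/ClpB AAA lid domain (Zm00001eb393250) and 1 with the C-terminal domain of the chaperone DnaJ (Zm00001eb345630). The others were an activator of the Hsp90 ATPase (Zm00001eb037640) and 2 members of the chaperonin Cpn60/TCP-1 family (Zm00001eb222300 and Zm00001eb046580). The remaining 7 were the pair related to Bax inhibitor 1, the alternative oxidase, an AAA-type ATPase core protein (Zm00001eb234160), a basic-leucine zipper protein (Zm00001eb352500, a family of DNA-binding transcription factors), an AMP-binding enzyme (Zm00001eb396330) and an Agenet-like protein (Zm00001eb108590). Genes for Hsp70, Hsp90 and the heat shock transcription factors are not in the shortened copy and were not analysed here.

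The members with a role in folding differed widely in size of response. The ClpA/ClpB gene Zm00001eb393250 was listed at 624.78, 986.06 and 1127.56 FPKM at 1 h under the nf-ya1 label and at 1226.3, 1326.61 and 1320.28 in W22, with rises of 5.59 and 5.46. The Hsp90 activator Zm00001eb037640 reached 740.2, 978.62 and 1221.8 FPKM under the nf-ya1 label and 476.34, 436.32 and 429.42 in W22, with rises of 4.85 and 3.24. Of the chaperonins, Zm00001eb222300 was the more abundant at 1 h, with 322.11, 500.77 and 564.4 FPKM under the nf-ya1 label and 391.57, 500.37 and 451.62 in W22, and its groups overlapped. Zm00001eb046580 was listed at 48.12, 54.46 and 55.31 FPKM under the nf-ya1 label and at 39, 50.2 and 42.33 in W22. Among the others, the AAA-type ATPase Zm00001eb234160 reached 293.5 to 570.06 FPKM under the nf-ya1 label and 295.71 to 324.47 in W22. The AMP-binding enzyme Zm00001eb396330 reached 113.87 to 134.86 under the nf-ya1 label and 58.17 to 75.24 in W22, and the Agenet-like gene Zm00001eb108590 8.27 to 11.17 and 7.06 to 11.88 in the same order of labels.

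By R2h nearly all of the heat-induced transcript was gone. The mean FPKM at R2h was 0.319 to 32.3% of that at 1 h under the nf-ya1 label (median 3.82%) and 0 to 19.1% in W22 (median 5.46%). It was under 10% for 79 genes under the nf-ya1 label and for 75 in W22. The highest share under the nf-ya1 label was that of Zm00001eb247320, at 32.3%, against 9.38% in W22. The W22 values were limited by the rule, and these shares also depend on the height of the peak, so they are given with no test.

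The libraries labelled nf-ya1 at R2h were the only ones the rule did not use. Against 0 h of the same label, 22 of the 93 genes (23.7%) were called higher and 4 (4.30%) lower, while 6.89% of all tested genes were called higher and 11.6% lower. The median log2 fold change was 0.42 (range −1.16 to 3.17), against −0.09 over all tested genes, and 0.41 without the 5 genes listed at 0 in every 0 h library. Without replicate 3 of this label at 0 h 22 genes were called higher, 19 of them among the 22. How many of all tested genes were called without it was not computed. Under the nf-ya1 label 19 genes were at or above a difference of 1.2 and 74 below it. The rule held W22 below this limit and set none at R2h under the nf-ya1 label, so the 19 are a description. The share of all tested genes at or above it was not computed. The 0 h libraries of this comparison entered the rule, which favoured genes with low values there, and those libraries had the widest spread. A fit of these 6 libraries alone called 11 genes higher, 10 of them among the 22, and the share of all tested genes in that fit was not computed. All 3 R2h libraries lay above all 3 at 0 h for 37 of the 93 genes (39.8%) and below them for 15 (16.1%), against 19.8% and 29.8% of all tested genes. This held for 21 of the 22 called higher and for 97.5% of all genes called higher. The exception among the 22 was Zm00001eb023560, with 29.14, 86.38 and 56.66 FPKM at R2h and 15.24, 29.92 and 10.33 at 0 h.

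Zm00001eb215030, related to Bax inhibitor 1, had the largest change. It was listed at 45.96, 29.24 and 34.62 FPKM at R2h and at 2.22, 3.72 and 3.52 at 0 h under the nf-ya1 label (log2 fold change 3.17, SE 0.27, adjusted p 3.15e-07). All R2h libraries were above all 0 h libraries, and in W22 the R2h values of 5.64, 13.08 and 10.82 overlapped those of 7.84, 7.04 and 4.04 at 0 h. The small heat shock protein gene Zm00001eb193940 was listed at 457.97, 413.91 and 424.69 FPKM at R2h under the nf-ya1 label, against 57.34, 38.84 and 66.74 at 0 h (3.003, SE 0.26, adjusted p 3.32e-07). In W22 it was listed at 45.16, 106.41 and 100.23 at R2h, and replicate 1 was the low library. For the ClpA/ClpB gene Zm00001eb393250 the R2h values were 80.97, 159.6 and 136.23 under the nf-ya1 label, against 17.52, 12.56 and 23.91 at 0 h (2.72, SE 0.26, adjusted p 1.04e-06). In W22 this gene lay just under the recovery limit, with 61.2, 63.98 and 64.05 at R2h and 30.14, 23.33 and 32.08 at 0 h. Zm00001eb247320 was listed at 302.61, 411.18 and 335.78 at R2h under the nf-ya1 label and at 41.97, 71.48 and 59.88 at 0 h (2.60, SE 0.24, adjusted p 8.07e-07). This gene of unknown annotation ended at the second highest level of the set at R2h under that label.

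Other genes called higher covered a wide range of levels. The basic-leucine zipper gene Zm00001eb352500 was listed at 8.64, 9.6 and 10.04 FPKM at R2h and at 3.43, 2.97 and 2.24 at 0 h (1.44, SE 0.20, adjusted p 4.11e-05), again without overlap. The alternative oxidase gene Zm00001eb071870 was listed at 15.39, 12.55 and 12.07 at R2h and at 4.13, 6.75 and 4.71 at 0 h (1.23, SE 0.22, adjusted p 0.000378). Zm00001eb337680 was listed at 4.29, 4.9 and 5.04 at R2h against 0.1 in each 0 h library (2.38, SE 0.13, adjusted p 2.56e-09), a fold change that the pseudocount of 1 understates. Zm00001eb362220 was listed at 14.45, 1.88 and 9.69 at R2h and at 0 in all 0 h libraries, so no fold is given. It passed the test with an adjusted p of 0.000821 and did not in the fit of the 6 libraries alone (adjusted p 0.0159). The assembled genes BGI_novel_G002519 and BGI_novel_G002927 were among the 22 as well, the second of them listed at 0 in all 0 h libraries of the label.

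**Figure D2:**
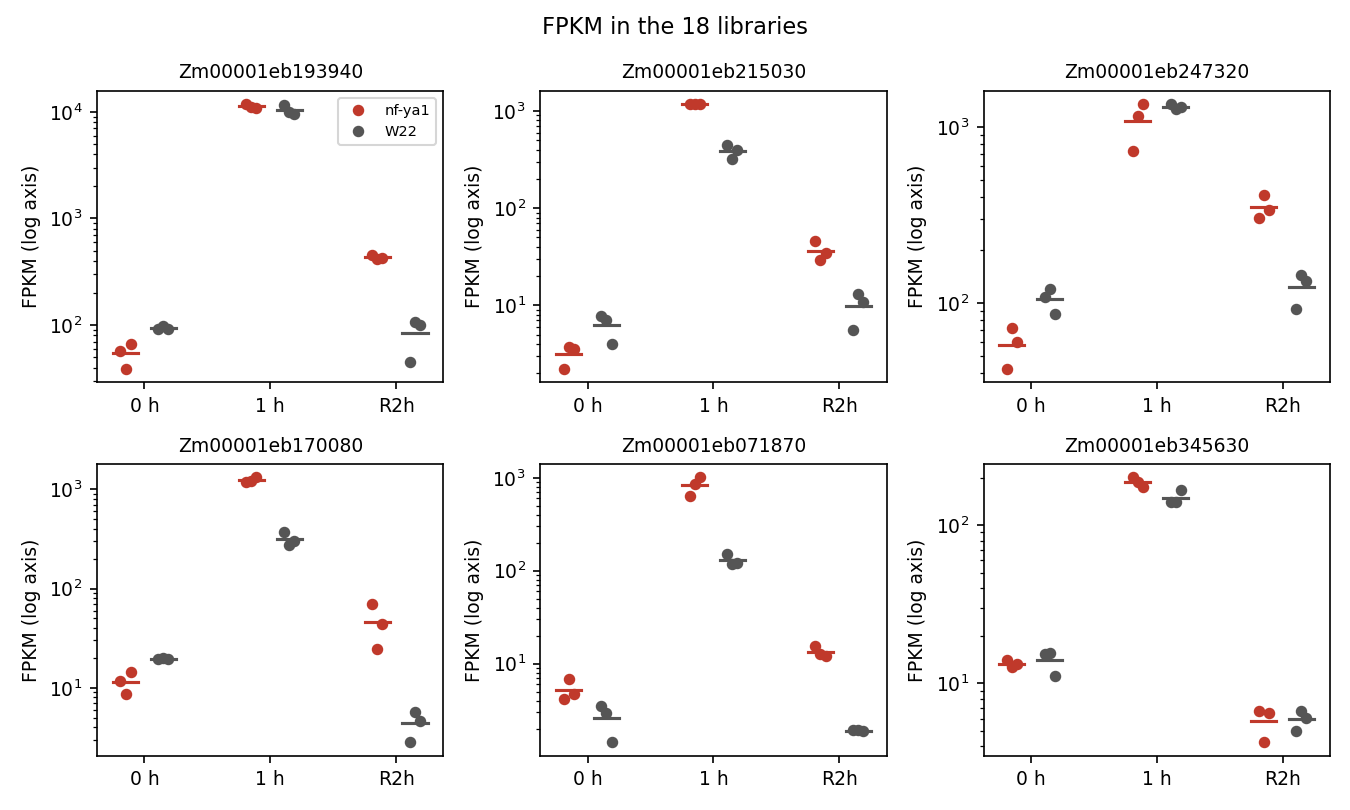
FPKM of 6 genes (logarithmic axis) in the 18 libraries at 0 h, 1 h and R2h, with the nf-ya1 label in red left of W22 in grey. Each point is a library and each bar the mean of 3. At R2h the points labelled nf-ya1 lie above W22 for 5 of the genes and overlap it for Zm00001eb345630.

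The 4 genes called lower at R2h than at 0 h under the nf-ya1 label included a pair of folding genes, and each call lay close to the fold change limit. The DnaJ-type gene Zm00001eb345630 was listed at 6.65, 4.24 and 6.49 FPKM at R2h and at 14.17, 12.73 and 13.19 at 0 h (−1.10, SE 0.16, adjusted p 5.02e-05). The Hsp90 activator Zm00001eb037640 was listed at 16.36, 14.55 and 15.65 at R2h and at 34.19, 27.45 and 35.67 at 0 h (−1.01, SE 0.20, adjusted p 0.000896). In W22 it was listed at 6.97, 13.54 and 12.53 at R2h and at 48.37, 45.34 and 45.88 at 0 h, so that both labels ended below their unheated level. Zm00001eb199950 was listed at 10.67, 11.3 and 10.82 at R2h against 24.76, 30.44 and 22.27 at 0 h (−1.16, SE 0.16, adjusted p 3.47e-05). Zm00001eb404570 was listed at 2.54, 2.12 and 2.34 against 5.87, 7.44 and 5.38 (−1.11, SE 0.24, adjusted p 0.00162). None of the R2h values of these genes overlapped the 0 h values. With median-ratio scaling only 1 of the 4 calls was left, with values of −0.97 for Zm00001eb345630, −0.89 for Zm00001eb037640 and −0.96 for Zm00001eb404570. Without replicate 2 labelled nf-ya1 at R2h the values of Zm00001eb345630 and Zm00001eb037640 were −0.92 and −0.97. The second of these was at −0.97 and −0.94 without replicate 1 or replicate 3 of that label at 0 h, and Zm00001eb404570 was at −0.99 without replicate 2 at 0 h.

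Genes below their unheated level at R2h were not confined to the called ones. Under both labels 23 of the 93 genes had a mean log2(FPKM + 1) at R2h below that at 0 h. Taken singly, the nf-ya1 label had 30 such genes and W22 40, while the medians over all tested genes were −0.09 and 0.13. The share of all tested genes was not computed, and the rule held W22 low at R2h, so these counts are a description. Zm00001eb368000 was listed at 180.47, 191.62 and 181.84 FPKM at R2h under the nf-ya1 label and at 456.43, 239.17 and 515.14 at 0 h (−1.05, SE 0.30, adjusted p 0.0107, not called). In W22 it was listed at 82.49, 191.22 and 170.9 at R2h and at 356.15, 349.66 and 356.3 at 0 h. Zm00001eb036130 was listed at 58.58, 73.83 and 68.64 at R2h and at 122.78, 103.38 and 182.56 at 0 h under the nf-ya1 label (−0.98, SE 0.23, adjusted p 0.00265, short of the fold change limit). In W22 its values were 61.69, 94.23 and 82.86 at R2h and 175.68, 151.04 and 184.73 at 0 h. Both genes thus lay below every 0 h library of their label at R2h while being among the 8 most abundant of the set at 1 h.

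Between the labels at R2h, 11 of the 93 genes (11.8%) were called higher in nf-ya1 than in W22 and 0 lower, while 5.14% of all tested genes were called higher and 3.1% lower. In limma 4 of the 93 were lower at an unadjusted p under 0.05, and the share of all tested genes at that limit was not computed. The median log2 fold change was 0.31 (range −0.67 to 3.05), against −0.02 over all tested genes, and 67 genes were above 0 and 26 below. The W22 libraries of this comparison entered the rule through an upper limit, which held W22 low. The rule also removed genes lower under the nf-ya1 label by 1 or more at 0 h or at 1 h, and none that were higher. Both limits favoured genes higher under the nf-ya1 label, so the direction of these counts is not free of the choice of genes. Without W22 replicate 1 at R2h, the low library of its group, 8 genes were called higher and the median was 0.19. How many of all tested genes were called without it was not computed. All 3 libraries labelled nf-ya1 lay above all 3 of W22 for 34 of the 93 genes (36.6%) and below them for 6 (6.45%), against 24.1% and 27.6% of all tested genes. The 11 called genes were among the 34, and 100% of all genes called higher in this comparison were without overlap too.

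The largest difference was that of Zm00001eb170080, with 70.03, 24.83 and 43.85 FPKM at R2h under the nf-ya1 label and 2.82, 5.76 and 4.62 in W22 (log2 fold change 3.05 with SE 0.29, adjusted p 3.90e-06). At 0 h the same gene had been lower under the nf-ya1 label, with 11.71, 8.6 and 14.29 FPKM, against 19.63, 19.91 and 19.58 in W22. At 1 h it was listed at 1185.08, 1209.8 and 1321.23 under the nf-ya1 label and at 373.37, 277.57 and 298.78 in W22. The order of the labels at 0 h was the reverse of that at 1 h and R2h. Zm00001eb061880 was listed at 46.67, 71.39 and 54.22 at R2h under the nf-ya1 label and at 6.24, 7.46 and 7.48 in W22 (2.84, SE 0.34, adjusted p 3.30e-05). Zm00001eb083380 was listed at 7.13, 13.87 and 10.79 under the nf-ya1 label and at 0.39, 0.8 and 0.93 in W22 (2.74, SE 0.35, adjusted p 6.57e-05), and it was higher under that label at 0 h too, with 2.55, 8.92 and 7.36 against 1.45, 1.71 and 0.65. The small heat shock protein gene Zm00001eb193940 differed by 2.45 (SE 0.26, adjusted p 9.85e-06) and the alternative oxidase gene Zm00001eb071870 by 2.30 (SE 0.22, adjusted p 4.83e-06), which was at 1.91, 1.94 and 1.87 FPKM in W22. The other genes called were Zm00001eb215030 (1.84), Zm00001eb004300 (1.66), Zm00001eb060680 (1.53), Zm00001eb247320 (1.51), Zm00001eb229930 (1.18) and Zm00001eb059310 (1.13).

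**Figure D3:**
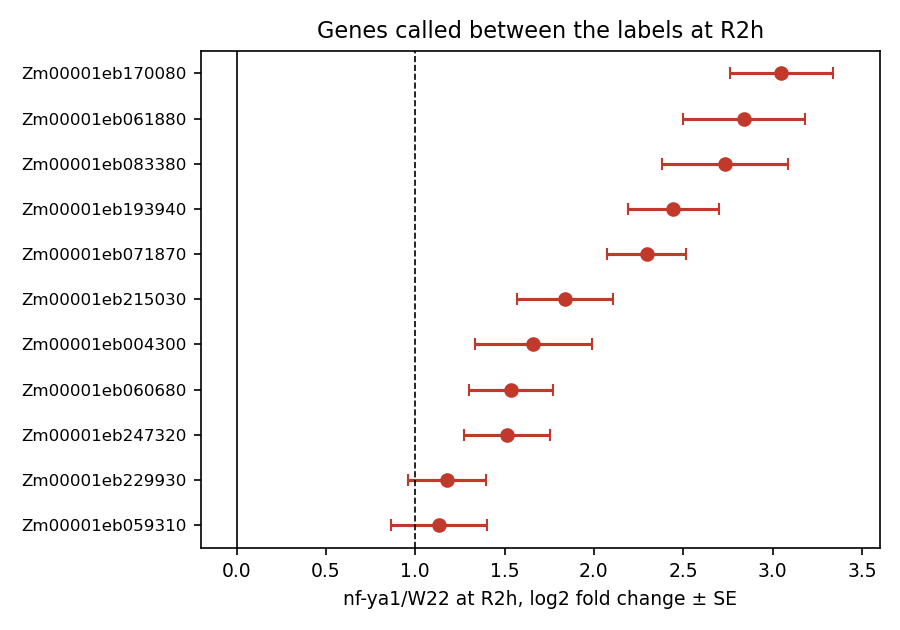
Log2 fold change ± SE in nf-ya1/W22 at R2h (horizontal axis, limma on log2(FPKM + 1), n = 3 libraries each) of the 11 genes called higher. Zm00001eb170080 had the largest difference with 3.05 and Zm00001eb059310 the smallest with 1.13, and the dashed line marks the fold change limit of 1.

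Of the 6 annotated folding genes, the small heat shock protein gene was the only one called between the labels at R2h. The chaperonin gene Zm00001eb222300 had the lowest value, with 9.65, 12.05 and 10.63 FPKM under the nf-ya1 label and 16.83, 19.23 and 17.03 in W22 (−0.67, SE 0.21, adjusted p 0.0295). For the chaperonin gene Zm00001eb046580 the values were 3.79, 2.38 and 4.03 under the nf-ya1 label and 4.7, 5.49 and 5.43 in W22 (−0.52, SE 0.18, adjusted p 0.0490). Both chaperonin genes had W22 libraries above all those labelled nf-ya1. The DnaJ-type gene Zm00001eb345630 was listed at 6.65, 4.24 and 6.49 under the nf-ya1 label and at 5.02, 6.74 and 6.07 in W22 (−0.04), and these overlapped. The ClpA/ClpB gene Zm00001eb393250 was above W22 by 0.93 (SE 0.26, adjusted p 0.0168).

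The difference between the labels in R2h/0h was tested as an interaction, nf-ya1 minus W22. It was called higher for 13 of the 93 genes (14.0%) and lower for 2 (2.15%), while 3.16% of all tested genes were called higher and 9.67% lower. All groups of this test except the R2h libraries labelled nf-ya1 entered the rule, and the test shares those libraries with the comparisons above, so the values are not separate evidence. The median was 0.31 (range −1.41 to 3.80), against −0.28 over all tested genes. Rescaling moved the median of all genes to −0.01 with median ratios and to 0.01 with quantile normalization, and that of the 93 genes to 0.51 and 0.53. Without W22 replicate 1 at R2h 9 genes were called higher. Quantile normalization called 20 genes higher, and under both scalings 0 were called lower. How many of all tested genes were called under these alternatives was not computed, so these counts have no reference.

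Zm00001eb170080 had the largest interaction, 3.80 (SE 0.41, adjusted p 1.53e-05), with R2h/0h log2 fold changes of 1.82 under the nf-ya1 label and −1.98 in W22. The small heat shock protein gene Zm00001eb193940 followed with 3.25 (SE 0.36, adjusted p 2.21e-05), from 3.003 under the nf-ya1 label and −0.25 in W22. For Zm00001eb215030 the interaction was 2.63 (SE 0.38, adjusted p 0.000205), with 3.17 under the nf-ya1 label and 0.54 in W22. Zm00001eb247320 had an interaction of 2.38 (SE 0.34, adjusted p 0.000197) from 2.60 and 0.22 in the same order. In these 4 genes the value under the nf-ya1 label was positive while that of W22 was negative or below 1. For Zm00001eb229930 the interaction was 1.99 (SE 0.31, adjusted p 0.000360), where nf-ya1 R2h/0h was 0.40 and did not pass the test while W22 was at −1.59. Its FPKM at R2h was 62.06, 33.89 and 46.06 under the nf-ya1 label and 14.73, 23.83 and 21.83 in W22. The 2 genes called lower were the chaperonin gene Zm00001eb046580 (−1.26, SE 0.26, adjusted p 0.00250) and Zm00001eb199950 (−1.12, SE 0.23, adjusted p 0.00212). With median-ratio scaling they were at −0.95 and −0.80, and with quantile normalization at −0.74 and −0.91. Zm00001eb199950 was also short of the limit, at −0.99, without W22 replicate 3 at 0 h, which left 1 gene called lower.

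**Figure D4:**
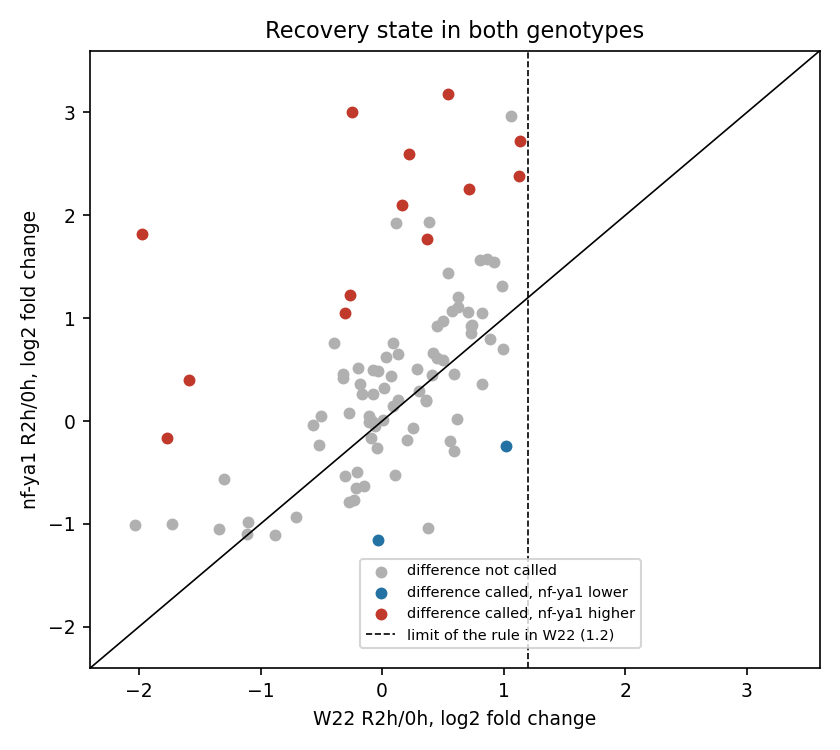
Log2 fold change in R2h/0h of the 93 genes under the nf-ya1 label (vertical axis) and in W22 (horizontal axis), coloured by the call of their difference, with the line of equal values. The dashed line is the limit of 1.2 that the rule set in W22, and 13 genes called higher lie above the line of equal values while 2 called lower lie below it.

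Of the 96 tested genes annotated to the folding pathway 6 (6.25%) were in the set, against 13 (0.733%) of the 1773 annotated genes tested and 93 (0.412%) of all genes tested. The study chose the annotated genes on these samples and the rule used the same libraries, so these shares are a description. Of all 1773 annotated genes tested, 205 were called higher in nf-ya1 1 h/0 h and 172 in W22 1 h/0 h. In nf-ya1 R2h/0h 204 of the 1773 were called higher and 348 lower, and in nf-ya1/W22 at R2h 137 and 92. The counts by family below are to be read beside these. Of 41 tested genes annotated as small heat shock proteins 1 was in the set, while 26 were called higher in nf-ya1 1 h/0 h and 23 in W22 1 h/0 h. In nf-ya1 R2h/0h 21 of the 41 were called higher and 7 lower, and in nf-ya1/W22 at R2h 9 were called higher and 0 lower (medians 2.39 and 0.75). Of 4 tested genes of the ClpA/ClpB type 1 was in the set, and 2 were called higher in nf-ya1 R2h/0h. Of 30 chaperonins 2 were in the set, and 8 were called higher at 1 h under the nf-ya1 label and 11 in W22. Of 10 DnaJ genes 1 was in the set, with 0 called higher and 5 lower in nf-ya1 R2h/0h, and of 11 co-chaperones and isomerases 1, with 2 called higher and 7 lower. Outside folding, 2 of 6 genes related to Bax inhibitor 1, 1 of 4 alternative oxidases, 1 of 43 basic-leucine zipper genes and 0 of 83 AP2/ERF genes were in the set. These lists hold only what the shortened copy names, and its names stop early in the alphabet, at Co. Members of a family with a later name are missing, isomerases and further DnaJ genes possibly among them. The 6.25% is thus not a share of the whole folding pathway. Near-identical members of such families may share reads, so that their values are uncertain.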

How the data were processed

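Leaves of nf-ya1 and W22 were sequenced at 3 time points, with 3 libraries in each of 6 groups named by the sample titles. The authors had BGI sequence the libraries (BGISEQ-500), filter the reads and align them to the B73 V5 genome and gene set, and they deposited FPKM per gene, which hold shares of a library. Aligner, versions and use of strand are not given in the sources used here, and reads per gene were not analysed, so the counting error is unknown and precision was taken from the replicates. Every column of values matched a sample (0 columns of no sample).

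Here log2(FPKM + 1) was fitted in R 4.3.3 with limma 3.58.1, with 1 mean per group, all 18 libraries and an intensity trend. The 22572 genes that reached an FPKM of 1 in 3 libraries or more were tested, with Benjamini-Hochberg adjustment over all of them. An exact permutation test of 3 against 3 libraries cannot go below a p of 0.1. The calling was tested on simulated data. The members and lists were chosen with earlier results of these data known. Genes named were the 8 most abundant at 1 h, the 8 with the largest rise, up to 5 called with the largest change in each direction, annotated genes and those next to a limit. Genes named for other reasons, Zm00001eb023560 and Zm00001eb059310 among them, were chosen after their values were seen. The markers of kernel and pollen and the other lists of the folding pathway were not analysed here, since the only gene names used were those of the shortened copy. Promoter motifs, gene structure and sequences were not analysed either, since no sequence or gene model used here covers these IDs. Figures were made in Matplotlib 3.10.9 under Python 3.11.15. Alternatives were other pseudocounts, filters, scalings, thresholds and sets of groups, the replicate number as a block, and each library left out.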

Additional observations from a re-analysis of the deposited data

Results flagged for a closer look

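The difference between the labels in R2h/0h (nf-ya1 minus W22) was called higher in limma for 13 of the 93 genes (14.0%) and lower for 2 (2.15%). Over all tested genes 3.16% were called higher and 9.67% lower. All groups of this test except the R2h libraries labelled nf-ya1 entered the rule, which held W22 low at R2h. These values are thus not separate evidence. Among the 13, the difference was 3.80 for Zm00001eb170080, 3.25 for the small heat shock protein gene Zm00001eb193940, 2.63 for Zm00001eb215030, related to Bax inhibitor 1, 2.38 for Zm00001eb247320 and 1.99 for Zm00001eb229930. The 2 others were the chaperonin gene Zm00001eb046580 with −1.26 and Zm00001eb199950 with −1.12. ZmNF-YA1 was listed above 0 under the nf-ya1 label, so these are differences between labels. Groups of 3 libraries are too small to be tested for outlying values.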

How the results depend on the processing

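The number of genes that met the rule was 93 and moved to 148 with log2(FPKM + 0.1), 201 with median-ratio scaling, 159 with a rise of 2.5 and 48 with a rise of 3.5, and of the 93 genes 80, 89, 93 and 48 were among these. With 1 library left out it was 88 to 98. In nf-ya1 R2h/0h, 22 genes were called higher and 11 when only the 6 libraries compared were fitted (17 to 23 with 1 library left out), and 4 were called lower and 1 with median-ratio scaling (4 to 6). In nf-ya1/W22 at R2h, 11 were called higher (8 to 13) and 0 lower (0 to 0), with 8 when only those 6 libraries were fitted. In the interaction 13 were called higher and 20 with quantile normalization (9 to 14), and 2 lower, with 0 under median-ratio scaling and 0 under quantile normalization (1 to 3, with 1 without W22 replicate 3 at 0 h). The cause of these changes was not tested, and the shares of all tested genes called under the alternatives were not computed. The 74 genes below 1.2 under the nf-ya1 label were 73 to 77 with 1 of the 6 libraries of that comparison left out. This count under other scalings or another pseudocount is not given here. The 21 log2 fold changes of genes named because they were called were also taken under each alternative. Of these 546 values, 530 kept their direction and side of the threshold, 16 no longer passed it and 0 changed direction. The 21 were picked as called and large. Some alternatives could hardly move them, such as an adjusted p of 0.05 on the same fit or a library left out of another group. The 530 are therefore no measure of stability.

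Whether the replicate numbers pair the libraries is not known. Of 45 correlations between same-numbered libraries of different groups, from −0.168 to 0.204, 2 were over 0.1. Correlations between libraries of different numbers were not computed, so there is no reference for these values. With the replicate number as a block, 22 genes were called higher and 4 lower in nf-ya1 R2h/0h, 11 and 0 in nf-ya1/W22 at R2h, and 12 and 2 in the interaction.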
